A study of Bos grunniens and Bos grunniens x Bos taurus with 2 samples.

Results

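Testis macrophages were taken from 2 droplet libraries of testis cells, both of tissue labelled as taken after sexual maturity, from the yak (*Bos grunniens*) and from the cattle-yak, the hybrid of yak and cattle (*Bos grunniens* x *Bos taurus*). A cell counted as a macrophage when the UMIs (unique molecular identifiers, each standing for 1 captured transcript) of *C1QA*, *C1QB*, *C1QC*, *CSF1R* and *CD163* summed to at least 4 and its mitochondrial share lay under 30%. The rule found 205 macrophages among 18734 cells under that limit and 20921 cells in all. The yak library held 135 of 11114 cells (1.21%, exact binomial interval 1.02% to 1.44%), and the cattle-yak library held 70 of 7620 (0.919%, 0.717% to 1.16%). In both, frozen testis tissue was thawed, digested with enzymes and filtered, the cells were placed in culture medium, and no sort is named. The study describes the yak as 1 male of 4 years whose testes were taken by castration. The labels do not say how many animals gave the cattle-yak tissue. The labels describe both samples as germ cells, whereas these libraries also held macrophages, T cells, endothelial, stromal and muscle cells. The libraries held 60816600 and 43774841 UMIs, of which the macrophages held 684846 and 265739. With 1 library for each group there is no replicate, so every comparison of yak and cattle-yak compares these libraries, has no test and carries an interval at 95% for counting error only.

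Macrophages are resident phagocytes that depend on the growth factor CSF1 and its receptor CSF1R. In the testis they lie between the tubules close to Leydig cells and on the tubule surface, where they clear dying cells and debris, present antigen on MHC class II and are known for a restrained response that protects germ cells from immune attack. C1q, made of the chains encoded by *C1QA*, *C1QB* and *C1QC*, opens the classical complement pathway and is made mainly by tissue macrophages, and CD163 takes up haemoglobin bound to haptoglobin.

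The 5 genes of the rule are described here without a test, since they chose the cells. In yak macrophages *C1QA* stood at 1996 counts per 1000000 UMIs (CPM; Poisson interval 1892 to 2105), *C1QB* at 1119 and *C1QC* at 701. In cattle-yak macrophages the 3 chains stood at 3308 (3093 to 3534), 2085 and 1562 CPM, and in all other cells of either library none exceeded 2.11 CPM. *CSF1R* stood at 927 CPM (856 to 1002) in yak and 1129 CPM (1005 to 1264) in cattle-yak macrophages. *CD163* was the lowest of the 5 in both, at 96.4 CPM (66 UMIs) and 346 CPM (92 UMIs). A yak macrophage held a median of 13 UMIs of these genes (4 to 160), a cattle-yak macrophage 26.5 (4 to 95). All 5 genes were seen together in 21 yak and 30 cattle-yak macrophages, while 17 and 4 held no UMI of a C1q chain.

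Some cells lay near the edge of the rule. In the yak, 12 cells had 3 such UMIs and 7 cells had 4, and in the cattle-yak these numbers were 5 and 4. At 5, 6 and 7 such UMIs there were 13, 8 and 15 yak cells and 1, 2 and 3 cattle-yak cells. A minimum of 8 took the yak share from 1.21% to 0.828%. The 12 yak cells just outside held 27 UMIs of *CSF1R* and 9 of the C1q chains, and 7 of them also held *MSR1*, the scavenger receptor A that the rule did not use. The 7 yak cells just inside held 18 UMIs of *CSF1R*, and 3 of them held *MSR1*.

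**Figure D1:**
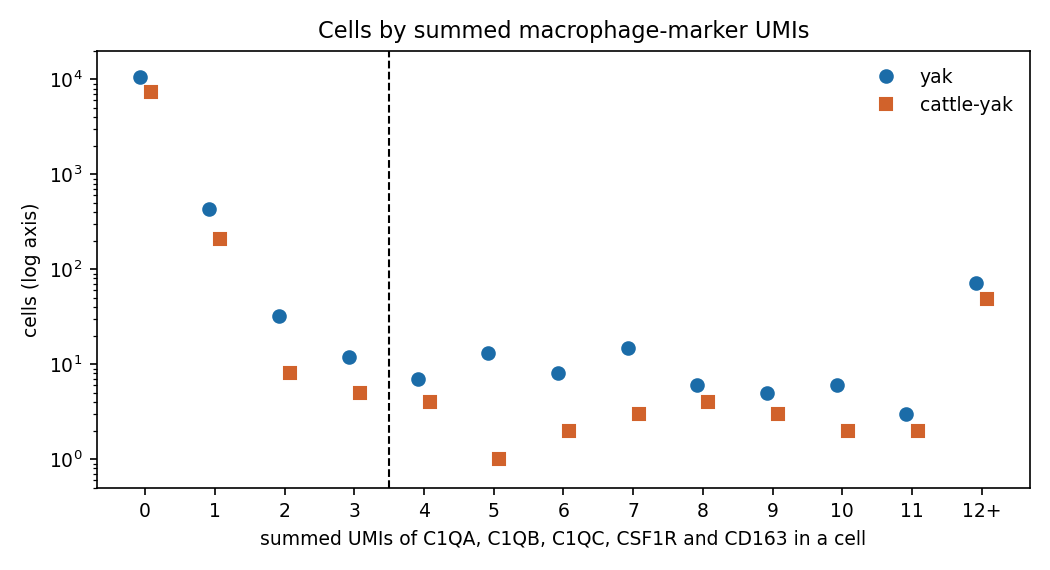
Number of cells (log axis) by the summed UMIs of *C1QA*, *C1QB*, *C1QC*, *CSF1R* and *CD163* in the cell, for cells under the mitochondrial limit of each library (circles yak, squares cattle-yak); the last point holds 12 UMIs or more and the dashed line marks the minimum of 4. At 3 UMIs there were 12 yak and 5 cattle-yak cells, at 4 UMIs 7 and 4, and at 12 or more 72 and 49.

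Some macrophages also carried transcripts of other cell types, and these cells weigh on the summed counts. To measure this, 5 further UMI rules were set for T cells, endothelial cells (EC), stromal, contractile muscle and germ cells. In the yak, 11 of 135 macrophages also met such a rule, 10 for EC, 7 for muscle and 1 for germ cells. They were deep, with a median of 19746 UMIs (4784 to 52060), and held 34.0% of all macrophage UMIs but only 0.992 rule UMIs per 1000, against 6.82 per 1000 in the other 124 yak macrophages. In the cattle-yak, 2 of 70 did so, with 8.43% of the UMIs. No macrophage of either library met the T cell or the stromal rule. The T cell rule had a symbol for only 2 of its 4 genes and asked for 4 UMIs, so it could miss T cell transcripts. Leaving out macrophages with T cell UMIs took the genes lower in the cattle-yak from 104 to 68. Whether these were doublets was not tested, and values without them are given beside many of the library comparisons but not beside every level. For the rule genes themselves, the library ratios (cattle-yak to yak, log2) of *C1QA* and *CSF1R* were 0.73 and 0.28 over all macrophages. They were 0.26 and -0.14 without the macrophages that met another rule, and that of *C1QC* was 1.15 over all and 0.70 without those. The median depth of all macrophages was 3634 UMIs and 1242 genes in the yak and 3604 UMIs and 1075.5 genes in the cattle-yak, against 2651 and 3157 UMIs in the other cells. Their median mitochondrial share was 14.6% and 17.9%, against 14.1% and 19.2% in the other cells. Of 24 barcodes that occurred in both libraries, 0 belonged to a macrophage.

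Among the macrophage genes that the rule did not use, *MSR1* and *F13A1* were high in these cells and low elsewhere. Others, given below, were weak or also found in other cells. *MSR1* stood at 270 CPM (233 to 312) in yak macrophages and 316 CPM (252 to 391) in cattle-yak macrophages, against 1.70 and 0.451 CPM in all other cells. *F13A1*, the factor XIII chain known from resident macrophages, stood at 312 and 406 CPM, against 6.81 and 5.06 CPM. Both lay within 2-fold between the libraries, with library ratios (cattle-yak to yak, log2) of 0.23 (-0.16 to 0.61) for *MSR1* and 0.38 (0.03 to 0.72) for *F13A1*. Without the macrophages that met another class rule, these ratios were -0.21 and -0.06. Since the cells were chosen by genes of the same transcriptome, these levels describe the label and are no independent test of it.

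*AIF1*, the calcium-binding protein also called IBA1, stood further above the other cells in the cattle-yak than in the yak. It stood at 1089 CPM (1013 to 1170.4) in yak and 1253 CPM (1122 to 1395) in cattle-yak macrophages. In the other cells it stood at 106 CPM in the yak but at 3.02 CPM in the cattle-yak. In the yak, germ-rule cells held 406 CPM (394 to 418), whereas EC, T, stromal and muscle cells lay between 5.26 and 12.7 CPM. In the 260 cattle-yak germ-rule cells *AIF1* had 1 UMI. The library ratio in all other cells was -4.74. In macrophages it was 0.20, and -0.24 without those that met another class rule, so that its direction depends on them.

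Some textbook markers were weak. *CD14*, a co-receptor for lipopolysaccharide, had 6 UMIs in yak macrophages (8.76 CPM, below 15.2 CPM in the other cells) and 14 UMIs in cattle-yak macrophages (52.7 CPM). *CD68*, a lysosomal glycoprotein, had 36 and 21 UMIs, *SPI1*, the myeloid master regulator PU.1, had 11 and 2, and *VSIG4*, a complement receptor of resident macrophages, had 8 and 2. Of 22 macrophage markers outside the rule, 14 had a feature under their symbol in the annotation of these files, and *MRC1*, *TYROBP*, *FCER1G*, *CTSS*, *MARCO* and *FOLR2* were among those without one. Among these 14, *MSR1*, *AIF1* and *F13A1* held 50 UMIs or more in each library and were at least 2-fold higher than in other cells in both.

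Among all genes outside the rule with at least 50 UMIs in macrophages, 328 of 1712 (19.2%) were at least 2-fold higher in yak macrophages than in the other yak cells, and 179 of 536 (33.4%) in the cattle-yak. Of the 532 genes tested in both libraries, 141 were higher in both, which is 93.4% of the 151 called in the yak and 80.6% of the 175 called in the cattle-yak. These shares of all tested genes, 19.2% and 33.4%, are the background for the counts of list genes that follow. Since a gene had to reach 50 UMIs in macrophages to be counted, genes high in macrophages passed this filter more easily, and the counts below describe the genes that passed and not their lists as a whole. The median log2 ratio over all tested genes was 0.03 in the yak and 0.39 in the cattle-yak. Of 377 genes on lists of macrophage functions and other cell types, 92 reached 50 UMIs in the yak and 55 of these were higher, and 40 of 56 in the cattle-yak. The 10 largest ratios in each library held 4 rule genes, and the other 6 included *MSR1* and *CXCL8* in both libraries and *AIF1* in the cattle-yak. Among the rest, which have no symbol in the files, *ENSBGRG00000008584* had the largest ratio in the yak and was also among the 10 in the cattle-yak. It stood at 199 CPM in yak and 527 CPM in cattle-yak macrophages, against 0.309 and 0.875 CPM in the other cells.

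Genes of antigen presentation were abundant, with a summed level of 24519 CPM in yak and 27072 CPM in cattle-yak macrophages against 2004 and 1442 CPM in the other cells. *CD74*, the invariant chain that guides MHC class II molecules, had UMIs in every macrophage of both libraries, at 22956 CPM (22598 to 23317) in the yak and 25141 CPM (24542 to 25751) in the cattle-yak. A yak macrophage held 2 to 602 UMIs of *CD74* with a median of 98, and a cattle-yak macrophage 3 to 241 with a median of 85.5. ECs, the next highest of the 5 classes, held 4192 and 3354 CPM. *HLA-DRA*, a class II alpha chain, stood at 1162 and 1434 CPM, against 56.3 and 39.0 CPM in the other cells. *CD86*, a costimulator of T cells, stood at 68.6 and 132 CPM. Of the 10 genes of that list with a symbol, 4 passed the filter in the yak and 2 in the cattle-yak, each at least 2-fold higher than in other cells. The summed list was close between libraries, with a log2 ratio of 0.14 (0.10 to 0.18), and -0.13 without the macrophages that met another class rule. The full list held 29 genes, and no *BOLA* gene had a symbol in the annotation.

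Of 4 complement genes tested between the libraries, 1 was at least 2-fold higher in the cattle-yak (3.16% of all genes) and 2 lower (9.38%). *C3*, the central component on which all complement pathways converge, stood at 1099.5 CPM in yak macrophages (753 UMIs) and 361 CPM in cattle-yak macrophages (96 UMIs). It was seen in 92 of 135 yak and 27 of 70 cattle-yak macrophages, with a median of 2 UMIs per yak cell and 0 per cattle-yak cell. The library ratio was -1.60 (-1.93 to -1.30), and -1.90 without the macrophages that met another class rule. In the other cells *C3* was also lower in the cattle-yak, at 10.1 against 24.4 CPM. *CFP*, or properdin, which stabilises the alternative pathway convertase, was lower in the yak, at 80.3 CPM (60.5 to 105), than in the cattle-yak, at 260 CPM (202 to 329). *ITGB2*, the beta chain of the complement receptors CR3 and CR4, stood at 267 and 290 CPM. *SERPING1*, the C1 inhibitor, had a ratio of -1.34 that became 0.79 without the macrophages that met another class rule.

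Scavenger and phagocytosis receptors summed to 1354 CPM in yak and 1592 CPM in cattle-yak macrophages. In the other cells they summed to 577 and 697 CPM. Stromal cells held 1654 CPM of them in the yak, above the macrophages, and 1194 CPM in the cattle-yak. The summed lysosomal genes stood at 2030 and 2476 CPM in macrophages, against 756 and 701 CPM in the other cells. Of the 21 receptors with a symbol, 6 passed the filter in the yak and 3 in the cattle-yak, of which 5 of 6 were higher in the yak (19.2% of all genes) and 2 of 3 in the cattle-yak (33.4%). *CLEC7A*, the beta-glucan receptor Dectin-1, stood at 83.2 and 82.8 CPM, against 0.566 and 0.106 CPM in the other cells. *TREM2*, a lipid-sensing receptor, stood at 90.5 CPM in the yak (62 UMIs) and at 30.1 CPM in the cattle-yak (8 UMIs), with a ratio of -1.56 (-2.86 to -0.52) on fewer UMIs than the minimum of 100 for a call. Of the lysosomal genes that passed, 6 of 7 were higher in the yak and 5 of 5 in the cattle-yak, among them the proteases *CTSH* (324 and 523 CPM) and *CTSC* (251 and 233 CPM), and *GRN*, which encodes progranulin (225 and 316 CPM). *HMOX1*, the haem-degrading oxygenase, stood at 742 CPM (679 to 809) in the yak and 1039 CPM (920 to 1169) in the cattle-yak, against 81.0 and 63.4 CPM in the other cells. *SLC40A1*, the iron exporter ferroportin, stood at 137 and 278 CPM, a library ratio of 1.02 that was 0.79 without the macrophages that met another class rule.

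Of 3 lipid genes tested between the libraries, 2 were at least 2-fold higher in the cattle-yak (3.16% of all genes) and 1 lower (9.38%). The summed lipid list was close between libraries, with a log2 ratio of 0.03 (-0.10 to 0.16). Without the macrophages that met another class rule it was -0.14. *APOE*, the apolipoprotein of cholesterol efflux, stood at 1478 CPM (1388 to 1572) in the yak and 738 CPM (638 to 848) in the cattle-yak, with an interval of the log2 ratio from -1.23 to -0.78, and -1.05 without the macrophages that met another class rule. *PLTP*, which transfers phospholipids between lipoproteins, was 444 CPM in the yak and 933 CPM in the cattle-yak, a ratio of 1.07 (0.82 to 1.32), and 0.76 without the macrophages that met another class rule. *PLIN2*, which coats lipid droplets, stood at 96.4 CPM (74.5 to 123) and 497 CPM (416 to 589). *APOE* was not particular to macrophages, since stromal cells held 3404 CPM in the yak and 1295 CPM in the cattle-yak.

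**Figure D2:**
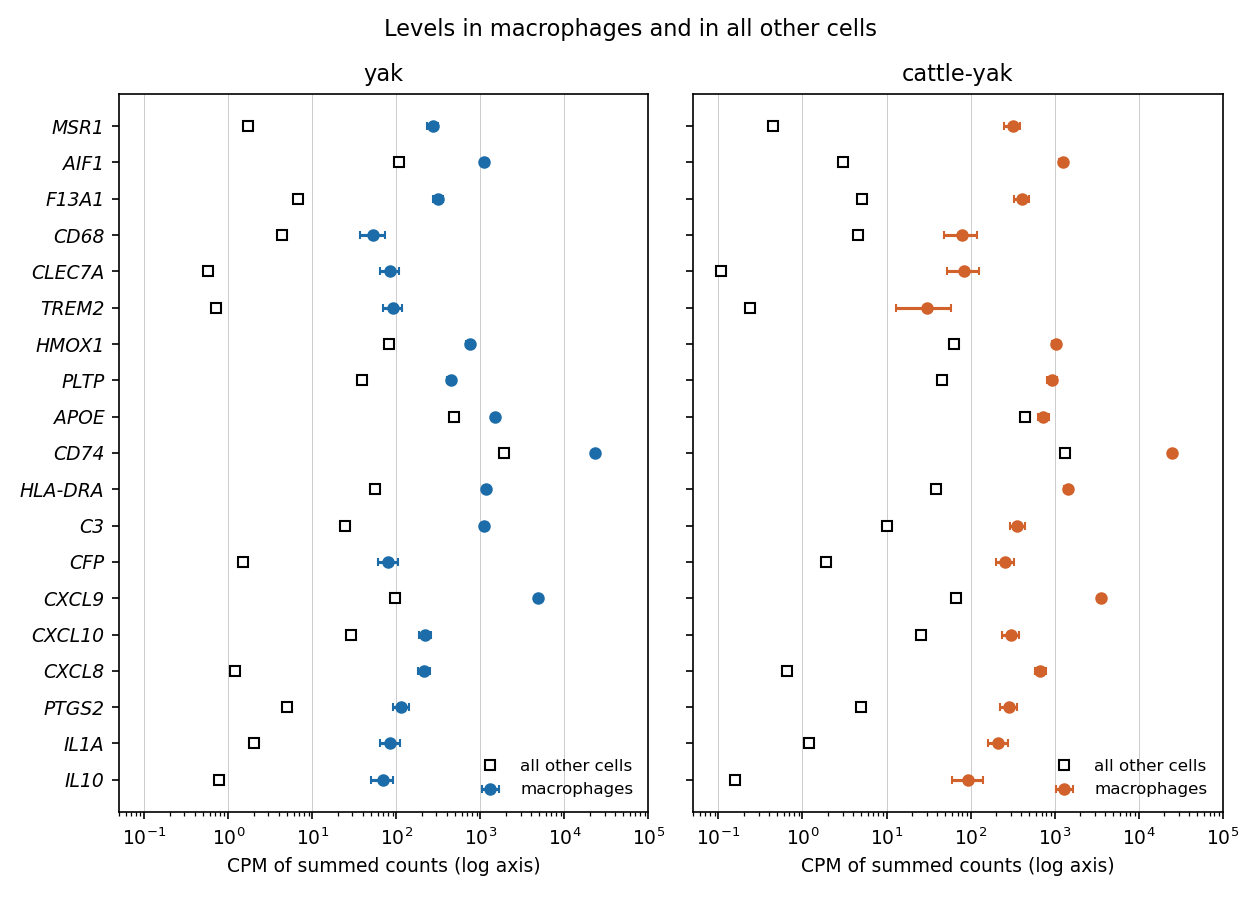
Level of 19 genes outside the rule in macrophages (filled circles, with 95% Poisson intervals) and in all other cells (open squares) as CPM of summed counts on a log axis, for the yak (left) and the cattle-yak (right). *CD74* and *CXCL9* have the highest levels in macrophages, *APOE* lies closest to the other cells, and *AIF1* in other cells is near 106 CPM in the yak and 3.02 CPM in the cattle-yak.

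The chemokines of macrophages were led by *CXCL9*, an interferon-gamma-induced ligand of CXCR3 that attracts activated T cells. It stood at 4833 CPM (4669.9 to 5001) in yak macrophages and 3613 CPM (3388 to 3849) in cattle-yak macrophages, against 97.4 and 66.7 CPM in the other cells. The library ratio was -0.42 (-0.53 to -0.32), -0.79 without the macrophages that met another class rule and -1.41 with each cell weighted equally. That last value gives full weight to a yak macrophage of only 525 UMIs, of which 133 were of *CXCL9*. In the yak the next highest class was stromal cells with 168 CPM (152 to 185), and in the cattle-yak ECs with 126 CPM (118 to 135). Few macrophages made most of it. The 10% of cells with the most *CXCL9* UMIs held 68.5% of them in the yak and 78.9% in the cattle-yak, and single cells reached 399 and 195 UMIs, against a median of 2 and 0. The sister ligands *CXCL10* and *CXCL11* stood at 220 and 117 CPM in the yak and at 301 and 102 CPM in the cattle-yak, above all 5 other classes in both. Their receptor *CXCR3* was highest in T cells in the yak, at 56.1 CPM (42.0 to 73.4), where macrophages had 3 UMIs. In the cattle-yak, T cells held 25.3 CPM (6.89 to 64.8) on only 4 UMIs. Macrophages there had 0 UMIs, which allows up to 13.9 CPM, so these intervals overlap.

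At an equal depth of 1000 UMIs per cell, drawn at random, 58 of 127 yak macrophages (45.7%, 36.8% to 54.7%) and 23 of 68 cattle-yak macrophages (33.8%, 22.8% to 46.3%) had a UMI of *CXCL9*, with 8 and 2 shallower cells left out. These intervals overlap. In T cells the shares were 1.33% of 301 and 0 of 44, which by a limit of 3 counts allows up to 6.82%, and up to 8.04% by the exact binomial interval. Without thinning they were 57.0% of yak and 41.4% of cattle-yak macrophages, at median depths of 3634 and 3604 UMIs against 2475 and 3161 UMIs in T cells. Thinned shares were close between libraries for *MSR1* (33.1% and 32.4%), *AIF1* (57.5% and 55.9%) and *CD74* (99.2% and 98.5%). They lay apart for *C3*, with 48.0% (39.1% to 57.1%) in the yak and 19.1% (10.6% to 30.5%) in the cattle-yak, and T cells had 1.33% in the yak and 0% in the cattle-yak.

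*CXCL8*, the neutrophil attractant interleukin 8, was far higher in macrophages than elsewhere. It had 145 UMIs in 33 yak macrophages (212 CPM, 179 to 249) and 180 UMIs in 36 cattle-yak macrophages (677 CPM, 582 to 784). All other cells stood at 1.20 and 0.663 CPM, so that macrophages held 67.4% of its UMIs in the yak library and 87.8% in the cattle-yak library. The library ratio was 1.67 (1.35 to 2.00), and 1.17 without the macrophages that met another class rule. *CCL5*, in contrast, was highest in T cells, with 5743 CPM in the yak and 3391 CPM in the cattle-yak, and stood at 260 and 339 CPM in macrophages. *CXCR4*, the receptor of CXCL12, stood at 404 and 474 CPM in macrophages, below T cells at 750.3 and 848 CPM, and *CXCL12* itself was highest in ECs, at 1028 and 793 CPM. The chemokine list held 26 genes, of which 16 had a symbol; *CCL2*, *CCL3* and *CCL4* were not among them.

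The ligands of CSF1R were measured in the same classes. *CSF1R* belongs to the rule, so its low level elsewhere (at most 7.59 CPM in the other 5 classes) was limited by the choice of cells and is no finding. Its ligand *CSF1* was highest in stromal cells of the yak, at 173 CPM (157 to 190.05), followed by the macrophages themselves at 146 CPM (119 to 178), and these intervals overlap. In the cattle-yak, macrophages had 184 CPM (136 to 244) and stromal cells 117 CPM (108 to 126). Germ cells were lowest, at 2.86 and 4.00 CPM. *IL34*, the second ligand of CSF1R, had no UMI in macrophages and at most 0.907 CPM in any class.

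**Figure D3:**
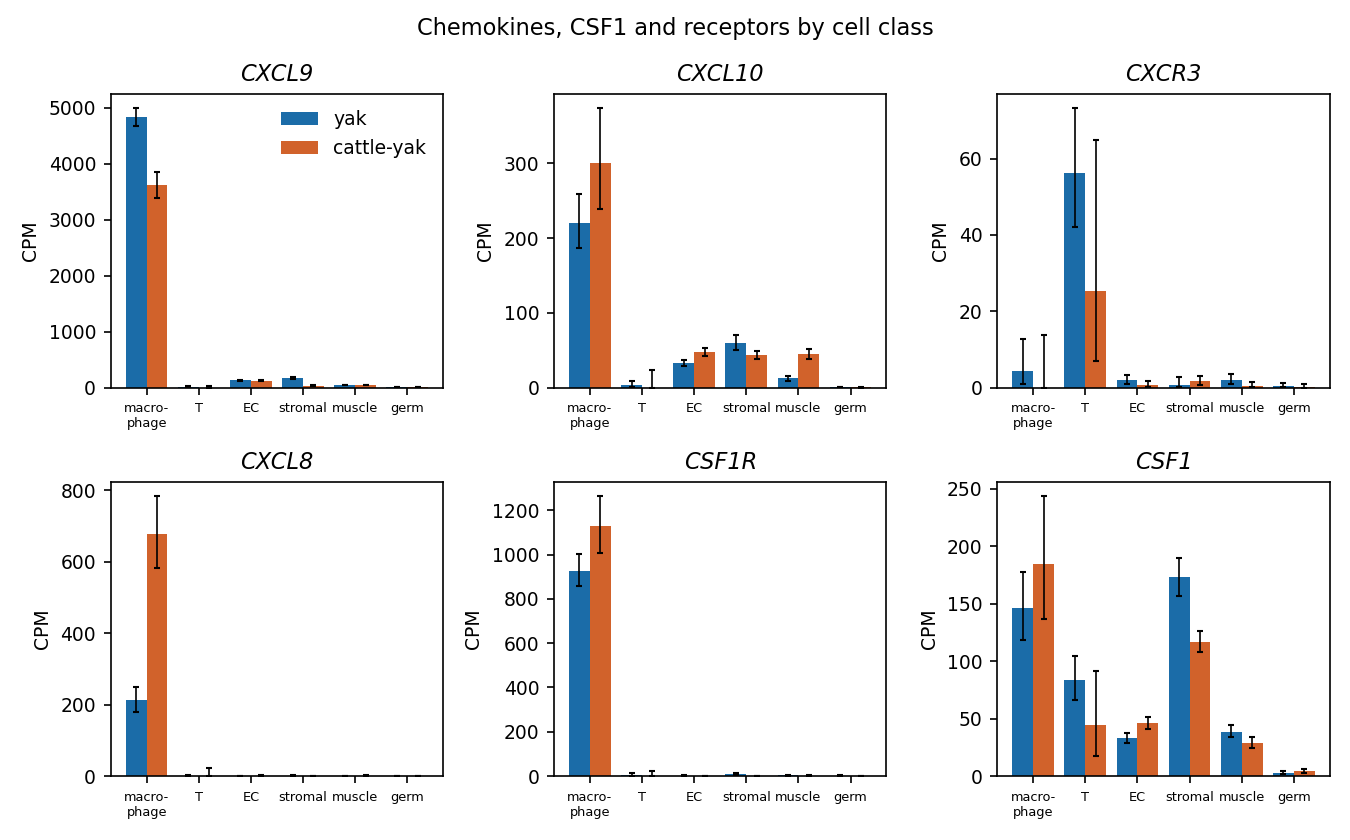
CPM of *CXCL9*, *CXCL10*, *CXCR3*, *CXCL8*, *CSF1R* and *CSF1* in macrophages and in T, endothelial (EC), stromal, muscle and germ cells of the yak (blue) and the cattle-yak (orange), each class by its UMI rule, with 95% Poisson intervals. *CXCL9*, *CXCL10* and *CXCL8* are highest in macrophages, *CSF1R* is shown as a gene of the rule, *CXCR3* is highest in T cells, and *CSF1* in stromal cells and macrophages.

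Inflammatory genes had few UMIs but stood above the other cells, with a summed level of 991 CPM in yak and 2224 CPM in cattle-yak macrophages against 143 and 71.3 CPM. Of 18 genes with a symbol, 6 passed the filter in each library, and these were at least 2-fold higher than in other cells. *IL1A* stood at 84.7 CPM in the yak and 214 CPM in the cattle-yak, *PTGS2*, the inducible prostaglandin synthase, at 114 and 286 CPM, and *PYCARD*, the inflammasome adaptor ASC, at 204 and 252 CPM. Without the macrophages that met another class rule, the library ratio of *IL1A* was 0.99 in place of 1.33 and that of *PTGS2* 0.87 in place of 1.32, both under 2-fold. *IL1B* had 20 and 11 UMIs and *TNF* 15 and 5. The summed list was higher in the cattle-yak, by 1.17 on the log2 scale (1.00 to 1.33) and by 0.77 without the macrophages that met another class rule. Single cells held most of *S100A12*, a calgranulin of neutrophils and monocytes. Its 78 UMIs in the yak all came from 1 cell of 17220 UMIs, and 60 of its 73 UMIs in the cattle-yak from 1 cell of 3946 UMIs. Each of these cells held 4 rule UMIs, all of *CSF1R*, and no UMI of a C1q chain. Neither met another class rule, and whether they are macrophages was not tested.

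*IL10*, the anti-inflammatory cytokine linked to tolerance in the testis, had 47 UMIs in yak macrophages (68.6 CPM, 50.4 to 91.3) and 25 in cattle-yak macrophages (94.1 CPM, 60.9 to 139). In the other cells it stood at 0.772 and 0.159 CPM. These UMIs came from 12.6% of yak and 17.1% of cattle-yak macrophages. *TGFB1* stood at 165 and 199 CPM against 117 and 95.8 CPM in the other cells, and was at least 2-fold higher only in the cattle-yak (log2 ratios of 0.49 and 1.05). Of the 2 tested regulatory genes in the yak, *VSIR*, an inhibitory ligand of T cells, was at least 2-fold higher (121 against 27.9 CPM).

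Genes of the interferon response were at least 2-fold higher than in other cells for 2 of 6 tested in the yak (19.2% of all genes) and 4 of 5 in the cattle-yak (33.4%). *IFI6* stood at 748 CPM in yak and 1972 CPM in cattle-yak macrophages, a ratio of 1.40 (1.22 to 1.58), and the same ratio in all other cells was 1.30. *GBP2*, with 39 and 53 UMIs under the minimum of 100 for a call, had a ratio of 1.79 (1.18 to 2.44) in macrophages and 1.29 in the other cells. *ISG15* had a ratio of 1.08 (0.75 to 1.42) in macrophages and 0.16 in the other cells.

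Early response and stress genes were abundant in macrophages and in the other cells. *JUN* stood at 5990 and 6612 CPM in macrophages, against 3411 and 4605 CPM in the other cells, and 7 of 14 tested genes of the stress list were at least 2-fold higher in the yak (19.2% of all genes) and 4 of 12 in the cattle-yak, which is near the 33.4% of all genes there. *HSPA6*, a strictly inducible heat shock protein, had 135 UMIs in 35 yak macrophages (197 CPM) but 8 UMIs in 7 cattle-yak macrophages (30.1 CPM). *HSPH1* stood at 458 and 214 CPM. Cell cycle genes were scarce, with a summed level of 126 and 192 CPM, against 433 and 392 CPM in the other cells, and *TOP2A* had 20 and 12 UMIs.

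Markers of other cell types were also measured in the macrophages. The Leydig list (3 of 8 genes with a symbol) had 3 UMIs in yak and 1 in cattle-yak macrophages. The mast cell list had 6 and 0 UMIs. The T/NK list stood at 253 and 147 CPM, led by *NKG7*, against 4274 and 3581 CPM in T cells. The B cell list stood at 159 and 79.0 CPM, against 16.3 and 10.5 CPM in the other cells, and *BANK1* gave 79 of 109 UMIs in the yak and 18 of 21 in the cattle-yak, while *MS4A1* had 9 and 1. The dendritic cell list stood at 407 and 286 CPM, against 399 and 370.4 CPM in the other cells, and was led by *TCF4* (251 and 109 CPM, against 307 and 280 CPM in the other cells), while *CLEC9A* and *XCR1*, markers of cross-presenting dendritic cells, had 0 UMIs in both libraries. Without the macrophages that met another class rule the dendritic cell list stood at 241 and 279 CPM, its library ratio turned from -0.51 to 0.21, and that of *TCF4* turned from -1.20 to 0.41. The endothelial list stood at 843 CPM in the yak, led by *PECAM1*, and at 108 CPM when the 11 macrophages that met another class rule were left out. For the muscle list these levels were 1894 and 562 CPM in the yak and 1859 and 362 CPM in the cattle-yak, led by *TAGLN*. The Sertoli list stood at 81.8 CPM in the yak and 15.5 CPM without those cells.

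*HORMAD1*, known as a meiotic chromosome protein, was seen in 114 of 135 yak and 61 of 70 cattle-yak macrophages, a gene chosen after its values were seen. It stood at 816 and 1159 CPM, against 50.2 and 48.0 CPM in the other cells, with a median of 3 and 4 UMIs per cell. In the RefSeq annotation of another yak assembly (Bosgru_T2T1.0), the next protein-coding gene beside it is *CTSS*, a lysosomal protease abundant in macrophages, and the annotation of these files has no feature of that symbol. Whether reads of the neighbour were counted on *HORMAD1* was not tested.

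Between the libraries, 35 of 1109 genes with at least 100 UMIs over all macrophages (3.16%) were at least 2-fold higher in the cattle-yak, and 104 (9.38%) were at least 2-fold lower. The median log2 ratio was -0.23, and -0.12 for the same genes in all other cells. Without the macrophages that met another class rule, 26 of 744 genes (3.49%) were higher and 37 (4.97%) lower, and the median was -0.19. Of the 35 genes, 18 were also higher in that comparison, and 24 of the 104 were also lower. Of the list genes tested, 13 of 72 were higher and 12 lower, and 7 and 5 of these, respectively, kept a 2-fold difference without those cells.

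All 10 genes with the largest ratio of cattle-yak to yak stayed at least 2-fold higher without the cells that met another class rule, and 5 of them have a symbol. *TGFBI*, an extracellular matrix protein induced by TGF-beta, stood at 58.4 CPM (40 UMIs) and 478 CPM (127 UMIs), a ratio of 3.01 (2.51 to 3.58) that was 2.52 without those cells and 1.49 in all other cells. It was seen in 18.5% of yak and 60.0% of cattle-yak macrophages. *PLIN2* had a ratio of 2.35 (1.93 to 2.81), against 0.38 in the other cells. *TNFAIP3*, the inhibitor of NF-kappa B known as A20, stood at 70.1 and 290 CPM, a ratio of 2.03 (1.51 to 2.60), while it was lower in the other cells of the cattle-yak (-0.78) and stood at 248 and 221 CPM in T cells. *CFP* had a ratio of 1.68 (1.16 to 2.23) and *CXCL8* one of 1.67, and in the other cells these ratios were 0.22 and -0.40. *TGFBI*, *PLIN2*, *CFP* and *CXCL8* had 5.29 CPM or less in T cells of the yak. In the 45 T cells of the cattle-yak they had no UMI, which allows up to 23.3 CPM by the Poisson interval. Among the genes without a symbol, *ENSBGRG00000020373* had the largest ratio, with 529 and 4271 CPM. It was lower in the other cells of the cattle-yak than in those of the yak. *ENSBGRG00000016497*, in contrast, had a ratio of 2.84 in macrophages and 3.01 in the other cells.

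The 10 genes with the smallest ratio had another makeup. *TF* (transferrin), *WFDC2*, *VWF*, *COL4A1*, *COL4A2* and *NES* all lost their 2-fold difference when the macrophages that met another class rule were left out. The 133 UMIs of *TF* and 207 of the 210 UMIs of *WFDC2* came from the same yak cell of 41256 UMIs, which held 8 rule UMIs, 9 EC UMIs and 25 muscle UMIs. *VWF*, the von Willebrand factor of endothelium, had 101 UMIs in 14 yak macrophages, 45 of them in the deepest one, and 3 UMIs in the cattle-yak. Its ratio of -3.59 became -0.31 without those cells. *HSPA6* (-2.67, -3.95 to -1.69), *DKKL1*, *GNG11* and 1 gene without a symbol stayed at least 2-fold lower, but of these 4 only *HSPA6* kept 100 UMIs there. *GNG11* then rested on 11 yak and 2 cattle-yak UMIs, *DKKL1* on 48 and 6, and the gene without a symbol on 23 and 5. *DKKL1*, a germ cell protein of the acrosome, was far more abundant in the other yak cells (929 CPM) than in yak macrophages (169 CPM), and in the other cells its ratio was -4.57. *HSPA6* had 290 CPM in the yak without those cells against 32.9 CPM in the cattle-yak, and a ratio of -0.08 in the other cells.

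**Figure D4:**
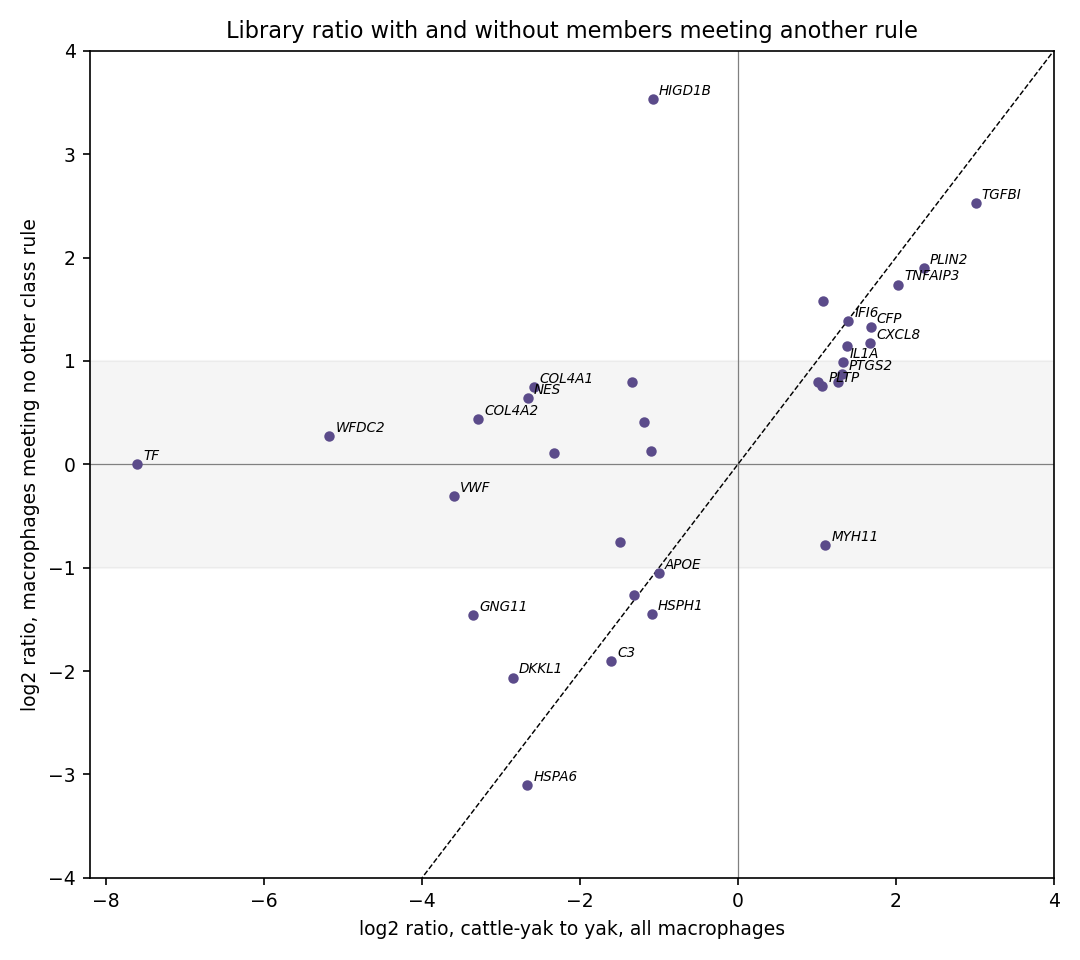
Log2 ratio of cattle-yak to yak macrophages (1 CPM added to each side) for named genes with a symbol and list genes past 2-fold, over all macrophages (horizontal axis) and over those that met no other class rule (vertical axis); the dashed line marks equal values and the band a difference under 2-fold. Apart from *MYH11*, genes higher in the cattle-yak lie near the line, *HIGD1B*, a pericyte gene, changes side on 2 yak and 15 cattle-yak UMIs, and *TF*, *WFDC2*, *VWF*, *COL4A1*, *COL4A2* and *NES* lie left of -2 on the horizontal axis and inside the band on the vertical axis.

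Macrophages of 1 library differed among themselves in how they met the rule. Of the 124 yak macrophages that met no other class rule, 89 held at least 4 UMIs of the C1q chains and 35 fewer, and in the cattle-yak these were 60 and 8. This split was chosen after the values were seen, and the C1q levels follow from it. Because C1q chains are part of the rule, cells with fewer C1q UMIs entered mainly through *CSF1R* (192 of their 227 rule UMIs in the yak and 35 of 45 in the cattle-yak), so the values below describe cells admitted in different ways and support no association with C1q. Cells with less C1q were somewhat deeper, with a median of 4178 against 3284 UMIs in the yak and 4142 against 3357.5 in the cattle-yak. In the yak, 258 of 2636 other genes (9.79%) were at least 2-fold higher in cells with more C1q and 212 (8.04%) lower. In the cattle-yak these were 259 of 1335 (19.4%) and 118 (8.84%), with only 8 cells in the smaller group. Of 1299 genes seen in both libraries, 779 had the same sign, 60 were at least 2-fold higher in both and 32 at least 2-fold lower in both.

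Levels of the CXCR3 ligands differed between the groups. *CXCL9* stood at 10263 CPM in yak macrophages with more C1q and at 557 CPM in those with less, a log2 ratio of 4.20 (3.90 to 4.52). In the cattle-yak it was 4507 against 419 CPM, a ratio of 3.42 (2.67 to 4.30). It was seen in 62 of 89 and 7 of 35 yak cells, and in 28 of 60 and 1 of 8 cattle-yak cells, so that the 14 UMIs of the smaller cattle-yak group came from 1 cell. *CXCL10* had ratios of 2.72 (1.76 to 3.91) and 3.61 (1.13 to 8.97), and all 69 and 27 UMIs of *CXCL11* lay in cells with more C1q. In the cattle-yak these cells held 209910 UMIs of all genes against 33430 in those with less, so most UMIs of any gene fall there. The lower bound of the *CXCL11* ratio was 3.32 in the yak and 0.12 in the cattle-yak. *DAB2*, an endocytic adaptor, had 143 UMIs against 3 in the yak and 161 against 1 in the cattle-yak. *SLC40A1* had 77 against 1 and 72 against 1, and *PLTP* ratios of 2.17 and 2.23. The lysosomal genes *CD68* and *LGMN* had 26 against 3 and 19 against 1 UMIs in the yak. In the cattle-yak each had 20 against 0 UMIs, with a lower bound of -0.35 that does not exclude equal levels.

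On the other side, *C3* and *APOE* stood higher in the cells admitted with less C1q, which number only 8 in the cattle-yak. *APOE* had a ratio of -1.47 (-1.69 to -1.26) in the yak and -1.26 (-1.73 to -0.79) in the cattle-yak. *C3* had a ratio of -1.28 (-1.51 to -1.05) in the yak and -2.55 (-3.17 to -1.94) in the cattle-yak. *S100A4*, a calcium-binding protein of motile cells, had 174 UMIs in the 35 yak cells with less C1q against 42 in the 89 with more, and they came from 11 cells. In the cattle-yak its 32 UMIs on that side came from 1 cell. *LRRK2*, a kinase found in monocytes, had ratios of -1.83 and -1.85. *INHBA*, the activin beta A chain, had 70 UMIs in 9 of the 35 yak cells with less C1q, and 95 of 96 UMIs in the cattle-yak came from 1 of 2 such cells. *IL10* had a ratio of -2.79 (-4.07 to -1.74) in the yak and -1.06 (-2.46 to 0.56) in the cattle-yak, where the interval spans 0. *CD74*, *HLA-DRA* and *MSR1* stayed within 2-fold between these groups in both libraries.

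**Figure D5:**
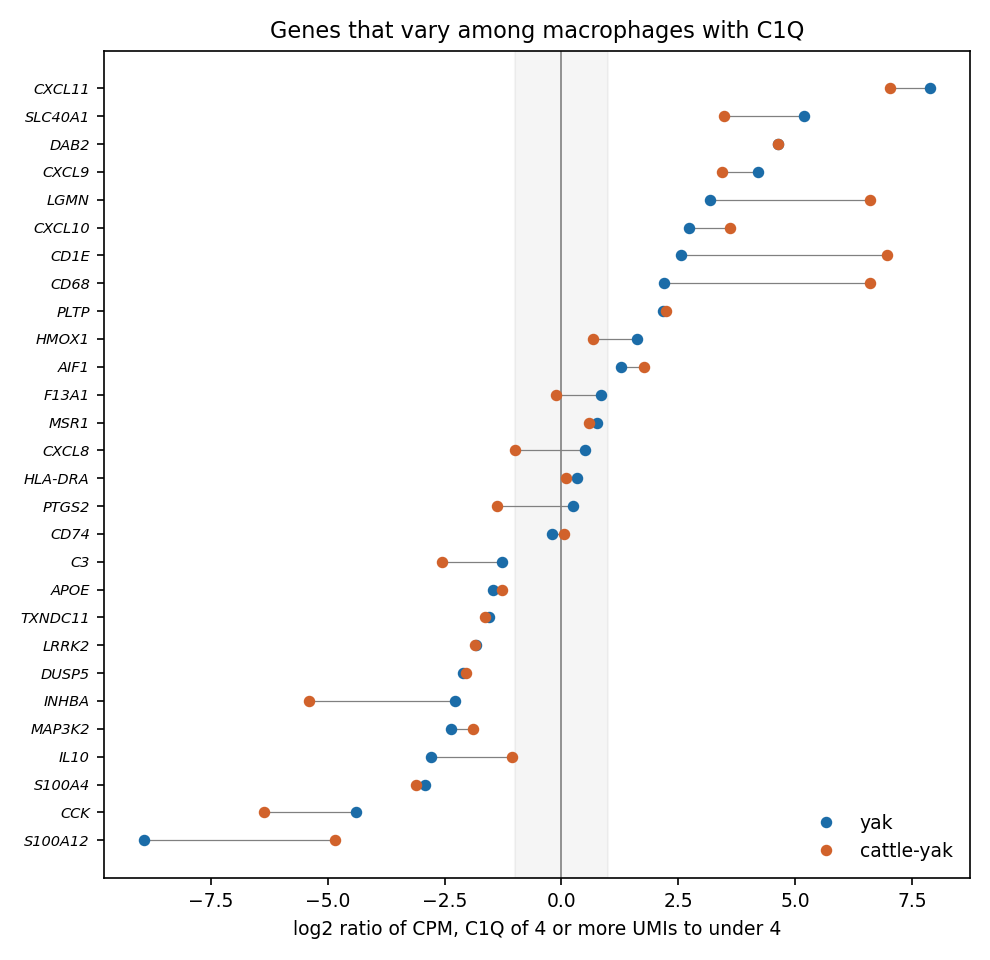
Log2 ratio of CPM (1 CPM added to each side) of macrophages with 4 or more C1q UMIs to those with fewer, among cells that met no other class rule, for the yak (blue) and the cattle-yak (orange); the band marks a difference under 2-fold, and points beyond 6 on either side rest on 0 to 2 UMIs in 1 of the groups compared, so that their value depends on the 1 CPM added. *CXCL9*, *CXCL10*, *CXCL11*, *DAB2* and *SLC40A1* lie to the right in both libraries, and *C3*, *APOE*, *S100A4* and *LRRK2* to the left.

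The cells with less C1q had the higher median depth, and a split by depth also separated several of these genes. With the same yak macrophages divided at their median of 3494 UMIs, *CXCL9* stood at 7060 CPM in the deeper and 6321 CPM in the shallower cells, and in the cattle-yak at 5256 and 1348 CPM. *S100A4* stood at 641 and 114 CPM in the yak and at 247 and 184 CPM in the cattle-yak. *INHBA* stood at 295 and 28.5 CPM in the yak and at 680.1 and 0 CPM in the cattle-yak. *C3* and *APOE* stayed within 2-fold between deeper and shallower cells. Their log2 ratios (deeper to shallower) were 0.07 and -0.41 in the yak and 0.46 and -0.64 in the cattle-yak. *DAB2* was lower in deeper cells, at 221 and 549 CPM in the yak and 476 and 1042 CPM in the cattle-yak, as was *SLC40A1*, at 135 and 257 CPM and at 167 and 564 CPM. *CD74* stood at 31393 and 25326 CPM in the yak and at 27675 and 25439 CPM in the cattle-yak. Within single cells, UMIs of *CXCL9* and *CXCL8* were found together in 13 of 127 thinned yak macrophages, of which 58 had *CXCL9* and 22 *CXCL8*, and in 6 of 68 cattle-yak macrophages, of which 23 had *CXCL9* and 22 *CXCL8*.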

How the data were processed

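Frozen testis tissue of the yak and the cattle-yak was thawed, dissociated and captured with the 10x Genomics system. The authors deposited UMI counts per gene and cell barcode as whole numbers, without normalization, for 26961 features, of which 15722 have a symbol and 37 are mitochondrial. The file headers name Cell Ranger 5.0.0 and the submitters' processing notes name 2.1.1, the study's methods name a further version, and reads of the yak were mapped to the yak genome build BosGru3.0 according to the study's methods. The methods do not describe the cattle-yak library, and its mapping to a yak genome cannot be told apart from expression.

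Cells at a mitochondrial share of 30% or more (877 yak, 1310 cattle-yak) were left out. Counts of the macrophages were summed and scaled to CPM over all features, and log2 ratios were taken after adding 1 CPM to both levels. Intervals are exact (Poisson, Clopper-Pearson binomial, conditional binomial) at 95%. No significance test was run, since cells of 1 library are not replicates. A difference was called by size alone, a log2 ratio of 1 or more, or of -1 or less, with at least 50 UMIs in macrophages against other cells, 100 UMIs over both libraries, or 20 UMIs in the C1q split. Members and lists were chosen with earlier results of these data known. Named are the rule genes, list genes, per library the 10 genes with the largest ratio to other cells among those with a UMI in at least 20% of macrophages, and the 10 largest and 10 smallest library ratios; others are said to be chosen after their values were seen, as were those named for the C1q split. Reference classes used minimum sums of 4 UMIs (T, EC, germ), 10 (stromal) and 20 (muscle), and cells that met several rules (1292 yak, 439 cattle-yak) entered none of them. No doublet caller was run. Of 527 list genes, 382 have a symbol in the annotation. A planned split by *MRC1* was replaced by C1q because the annotation has no feature of that symbol. Some genes are not reported here. The ratio and its interval were tested on simulated data. Python 3.11.15, numpy 2.4.6, scipy 1.17.1, pandas 2.3.3 and matplotlib 3.10.9 were used.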

Additional observations from a re-analysis of the deposited data

Results flagged for a closer look

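*TF* and *WFDC2* were above the other cells in yak macrophages and below them in cattle-yak macrophages, and the difference was not tested. The log2 ratio of macrophages to other cells was 3.47 and -3.92 for *TF* and 3.24 and -3.06 for *WFDC2*, where *TF* had 0 UMIs in cattle-yak macrophages, so that its value there depends on the 1 CPM added and is no bound. All 133 UMIs of *TF* and 207 of 210 UMIs of *WFDC2* came from 1 yak cell.

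Cells over the mitochondrial limit, which the comparisons leave out, also held macrophage UMIs. In the cattle-yak, 4 of 1310 such cells (0.305%, 0.0833% to 0.780%) met the sum of 4 UMIs. They are listed because macrophage UMIs were seen in cells outside the comparisons. In the yak, 3 of 877 did (0.342%, 0.0706% to 0.996%).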

How the results depend on the processing

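No paired analysis was possible because each group holds 1 library, and for the same reason no library could be left out. A minimum of 8 rule UMIs took the share of yak macrophages to 0.828%, and a mitochondrial limit of 20% took the list genes higher than in other cells from 40 to 26 in the cattle-yak. A filter of 20 counts gave 583 and 404 genes higher than in other cells (yak and cattle-yak), 173 higher and 743 lower in the cattle-yak, and a log2 fold of 2 gave 142, 105, 7 and 17. The 104 genes lower in the cattle-yak became 42 without cells above the mean plus 2 SD of UMIs, to 42 with at least 1 rule UMI per 1000 (where 21 were higher), to 68 without members with T cell UMIs and, a setting chosen after seeing the data, to 37 without members that met another class rule. With mitochondrial features left out of the denominator 40 genes were higher and 83 lower, and with each cell weighted equally 33 and 75.

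Of 123 ratios of single genes and lists followed, 74 were at least 2-fold, and among these the sign changed for 6 genes and 1 list (sign changes of smaller differences were not counted), and of the 25 list genes called between the libraries 6 others changed sign without members that met another class rule, namely *HIGD1B* (-1.08 to 3.53), *ROBO4* (-2.33 to 0.11), *SERPING1* (-1.34 to 0.79), *TCF4* (-1.20 to 0.41), *PECAM1* (-1.10 to 0.12) and *MYH11* (1.10 to -0.78). *TF* in yak macrophages against other cells became -3.69 without the deepest cells, -4.31 with 1 rule UMI per 1000 and -4.13 without members that met another class rule, and *WFDC2* became -2.44, -2.35 and -2.10 in that order. Between the libraries *TF* became 0.00 under each, with no UMI left, and *WFDC2* 0.32, 0.31 and 0.27. *S100A12* in the yak became -5.07 with a minimum of 8 rule UMIs and with 1 rule UMI per 1000. Without members that met another class rule, *COL4A2* (0.44), *NES* (0.64), *COL4A1* (0.74) and the summed endothelial list (0.18) were no longer lower in the cattle-yak.

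With cells thinned to 2000 UMIs, the share of macrophages with *MSR1* was 48.7% and 47.5% and with *AIF1* 75.7% and 78.7% (yak and cattle-yak), and without thinning the shares were 68.1% and 60.0%, 87.4% and 81.4%, and 57.0% for *CXCL9* in the yak. The C1q split of *CXCL9* moved to 3.66 in the yak over all macrophages and to 2.55 in the cattle-yak with equal weight per cell. For the same 123 ratios, 1347 values under alternative settings gave 879 within the counting interval, 450 outside it and 18 with a changed sign, the last counted only where the reported difference was at least 2-fold. Depth limits genes with few UMIs, such as *TREM2* with 8 in cattle-yak macrophages.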
